A study of Mus musculus with 2 samples.

Results

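Kinesins are motor proteins that use ATP to move along microtubules or to shorten them. A first group builds and divides the mitotic spindle: some slide microtubules apart to separate the poles, some move or align chromosomes, some take microtubules apart at their ends, and some gather at the midzone of the dividing cell and complete cytokinesis. Another group carries vesicles, organelles and RNA along microtubules in cells of any cycle stage, and a smaller group works in cilia. The genes described here are those whose symbol is Kif or Kifc followed by a digit, which found 44 of 31053 genes in the count matrix. Of these, 42 are kinesins, Kif1bp encodes a protein that binds kinesins, and Kif16bos is an antisense RNA. By known role, 14 of the 44 were listed as mitotic, 16 as transport, 7 as cilium and 7 as other. Cenpe, a kinesin without a Kif symbol, and the kinesin adaptors were treated as partners.

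The cells came from mouse corneal epithelium of the genotype CycB1-GFP, a reporter in which GFP is fused to cyclin B1, the regulator of entry into mitosis, and marks cycling cells. Live GFP+ cells were sorted and profiled with 10x Genomics 3' chemistry. The labels give 1 group of 2 replicates and no untreated, unsorted or GFP-negative cells, so every comparison below is between cells of the same sort. No source used here gives the age or number of the mice. The barcode endings separate 2 libraries, which are called library 1 and library 2 and were not linked to the replicate numbers. The p-values rest on how far differences between groups of cells vary between these 2 libraries, with a spread shared over genes. That spread may be technical, since the labels do not say that the replicates came from separate animals.

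Library 1 kept 3187 cells with 18773893 unique molecular identifiers (UMIs, each counting 1 captured RNA molecule) and a median of 5571 UMIs per cell. Library 2 kept 3001 cells with 17796678 UMIs and a median of 5886. The epithelial markers Krt5, Krt14, Epcam and Cdh1 summed to 12739 CPM (UMIs per 1000000 UMIs of the library) (library 1) and 10751 (library 2), and the corneal markers Krt12, Aldh3a1 and Pax6 to 17461 and 20732. The limbal and conjunctival markers summed to 2189 and 4133 CPM, of which Krt13 made 136 and 200 and Krt4 83.7 and 176. The 5 immune markers summed to 11.6 and 35.7 CPM, and the keratocyte, melanocyte, endothelial and neural lists to between 0.112 and 7.25 CPM. Kera, Col1a1, Col1a2, Tyrp1, Cdh5, Kdr and Cldn5 had no UMI in either library, while the melanocyte genes Pmel (46 and 59 UMIs), Dct (20 and 42) and Mitf (21 and 26) and the keratocyte gene Dcn (5 and 1) had some.

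Together the kinesin genes took 2089 CPM of the first library and 2321 of the second. The 2 most abundant were transport motors. Kif21a, which limits microtubule growth near the cell edge, was at 356 and 398 CPM in libraries 1 and 2. Kif5b, the heavy chain of conventional kinesin, was at 362 and 368 CPM. Since 3' UMIs count RNA ends and not length, these levels can be ranked, apart from differences in capture between genes. The next 5 were mitotic: Kif20b (182 and 200 CPM), Kif23 (154 and 188), Kif11 (148 and 161), Kif15 (140 and 164) and Kif4 (105 and 119). Kif20b and Kif23 act in cytokinesis, Kif11 and Kif15 push spindle poles apart, and Kif4 is a chromosome-bound motor. The order of Kif11 and Kif15 was not the same in both libraries, and the 95% Poisson intervals of Kif5b and Kif21a overlapped in library 1 (353 to 370 and 347 to 364 CPM).

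Of the 44 genes, 27 had at least 100 UMIs over both libraries. Over these 27 the ratios of library 2 to library 1 ran between 0.815 and 1.79. Kifc3, a minus-end motor, had the highest ratio, at 4.10 and 7.36 CPM. The Poisson intervals cover counting error only, and with 1 sample per library there is no test of these ratios. At the low end, Kif12, Kif2b and Kif19a had no UMI in 6188 cells, where the limit allowed by 0 counts (3 UMIs) is 0.160 CPM in library 1 and 0.169 in library 2. Kif1a, Kif28, Kif5c, Kif16bos, Kif5a and Kif27 had 1 to 7 UMIs in all. Kif1a, Kif5a and Kif5c are motors best known from neurons.

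Cells with mitotic RNA held more RNA of nearly every kinesin listed as mitotic and little more of most transport motors. A cell was counted as having mitotic RNA with at least 4 UMIs of Ccnb1, Cdc20 and Plk1 together, and as having none with 0. Ccnb1 encodes cyclin B1, Cdc20 activates the anaphase-promoting complex, and Plk1 is a mitotic kinase. The classes were matched on total UMIs within each library, giving 561 cells per class in library 1 (medians 5616 and 5608 UMIs) and 525 in library 2 (medians 5827 and 5859). The summed UMIs of each class in each library entered edgeR's quasi-likelihood test, with the library as a block and Benjamini-Hochberg adjustment over 10473 genes. With 27 of the 44 genes tested, 13 were higher and 0 were lower at an adjusted p under 0.05. Over all genes tested, 6.03% were higher and 6.82% were lower. The median log2 fold change of the 27 was 0.59, against -0.00044 over all genes.

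Of the 13 tested kinesins listed as mitotic, 12 were higher. The role lists were set with earlier results of these data known. Kif2a, a relative of Kif2c, was listed as other and did not pass (log2 fold change -0.03, adjusted p = 0.899, edgeR). Sums of cells do not tell apart more cells with a gene's RNA from more RNA per cell.

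Among the motors that act on chromosomes and microtubule ends, Kif2c had the largest difference. Kif2c, which takes microtubules apart at kinetochores and corrects faulty attachments (ENSMUSG00000028678, GRCm38 chr4:117159639-117182639, minus strand) was at 101 and 96.6 CPM (scaled by TMM, the trimmed mean of M-values, in libraries 1 and 2) in cells with mitotic RNA, and at 19.6 and 17.4 CPM in cells without. The classes did not overlap, and the log2 fold change was 2.42 (SE 0.14, adjusted p = 1.71e-06, edgeR). Kif22, which moves chromosomes towards the metaphase plate, was at 122 and 131 CPM against 32.9 and 36.9 (log2 fold change 1.86, SE 0.12). Kif18a, which dampens chromosome movements at the plate, was at 56.0 and 65.9 CPM against 15.5 and 20.5 (1.76, SE 0.15). Kif4 rose by 1.24 (SE 0.11), from 61.5 and 65.0 to 137 and 162 CPM. Kif18b, which shortens astral microtubules, was at 19.6 and 27.9 CPM against 10.2 and 11.4 (1.13, SE 0.21), and its call was lost with DESeq2 (adjusted p = 0.292) and without the library block (adjusted p = 0.0747). For each of these genes both libraries were higher with mitotic RNA.

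The motors of the spindle midzone and of cytokinesis formed the other large group. Kif20a, which carries the chromosomal passenger complex to the midzone, was at 111 and 113 CPM with mitotic RNA and at 24.8 and 23.3 CPM without (log2 fold change 2.21, SE 0.13, adjusted p = 2.00e-06, edgeR). Kif14, which works with citron kinase, was at 67.4 and 70.2 CPM against 18.3 and 14.2 (2.08, SE 0.16). Kif23, the motor of the centralspindlin complex, was at 247 and 270 CPM against 74.2 and 90.9 (1.65, SE 0.10). Kif20b was at 250 and 277 CPM against 88.5 and 82.7 (1.62, SE 0.11). The 4 genes were between 3.08 and 4.64 times as high in cells with mitotic RNA.

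Of the motors that shape the spindle poles, Kifc1, Kif11 and Kif15 were higher. Kifc1, a minus-end motor that focuses poles, was at 41.9 and 39.8 CPM against 12.4 and 15.5 (log2 fold change 1.55, SE 0.19). Kif11 was at 200 and 216 CPM against 80.4 and 86.4 (1.32, SE 0.10). Kif15 was at 157 and 176 CPM against 97.2 and 124 (0.59, SE 0.10, adjusted p = 0.00401, edgeR), the smallest difference of the 12. The Kif15 call was lost with DESeq2 (adjusted p = 0.111) and without the library block (adjusted p = 0.136). Kifc5b, a close relative of Kifc1, was at 4.98 and 9.42 CPM against 2.48 and 3.15 and did not pass (1.33, SE 0.39, adjusted p = 0.050024). Values of both are uncertain, since 58.9% of the 31-base words in the last 500 bases of Kifc1 transcripts also occur in Kifc5b transcripts. Kif20a, Kif4 and Kif18a overlap Cdc23, Pdzd11 and Mettl15 on the other strand.

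Of the 10 transport genes tested, 1 was higher. Kif21a was at 420 and 436 CPM with mitotic RNA and at 315 and 352 CPM without (log2 fold change 0.36, SE 0.09, adjusted p = 0.0227, edgeR). This call was lost with DESeq2 (adjusted p = 0.418) and without the library block (adjusted p = 0.245). The 5 most abundant genes that did not pass were Kif5b, Kif2a, Kif1c, Kif1b and Kif13a, with log2 fold changes of 0.04, -0.03, -0.02, 0.20 and 0.16. Kif2a, a relative of Kif2c, was at 50.4 and 68.3 CPM with mitotic RNA and 55.9 and 65.0 without. The transport gene Kif16b also did not pass, at 24.9 and 18.2 CPM against 13.4 and 14.8 (0.61, SE 0.22, adjusted p = 0.0973, edgeR). Its difference was about that of Kif15. The 14 genes that did not pass ranged from -0.90 (Kifc3) to 1.33 (Kifc5b).

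The partners of these motors gave a like picture by list. All 20 spindle and midzone partners were higher, with Ckap2 (2.74), Aurka (2.43), Knstrn (2.36) and Hmmr (2.29) having the largest log2 fold changes and a list median of 1.67. Of 11 kinesins without a Kif symbol and adaptors, Cenpe (2.57), the kinetochore kinesin, and Kifap3 (0.51), the adaptor of kinesin-2, were higher. Nde1 (2.04) and Dynlt1f (0.76) were higher among 19 dynein and dynactin genes. Tubb4b (1.08), Tuba1b (0.50) and Tubb5 (0.47) were higher and Tuba4a (-0.54) was lower among 11 tubulins.

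Before matching, cells with mitotic RNA had median UMIs of 6592.5 and 6679 against 4366 and 4359. The immune marker list stood at 0.594 and 21.8 CPM in all cells with mitotic RNA and at 33.0 and 48.9 CPM in those without, and Ptprc, which defines leukocytes, was at 0.426 and 1.63 CPM over all kept cells. Of cells with enough Krt12 and Krt15 UMIs, 70.5% and 53.9% with mitotic RNA were Krt12-dominant, against 77.6% and 65.6% without. Matched cells were drawn anew without the 10 cells that held at least 10 immune marker UMIs, a choice made after seeing the data. The direction of the 13 did not change, and the part of the keratin makeup in these results was not tested.

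**Figure D1:**
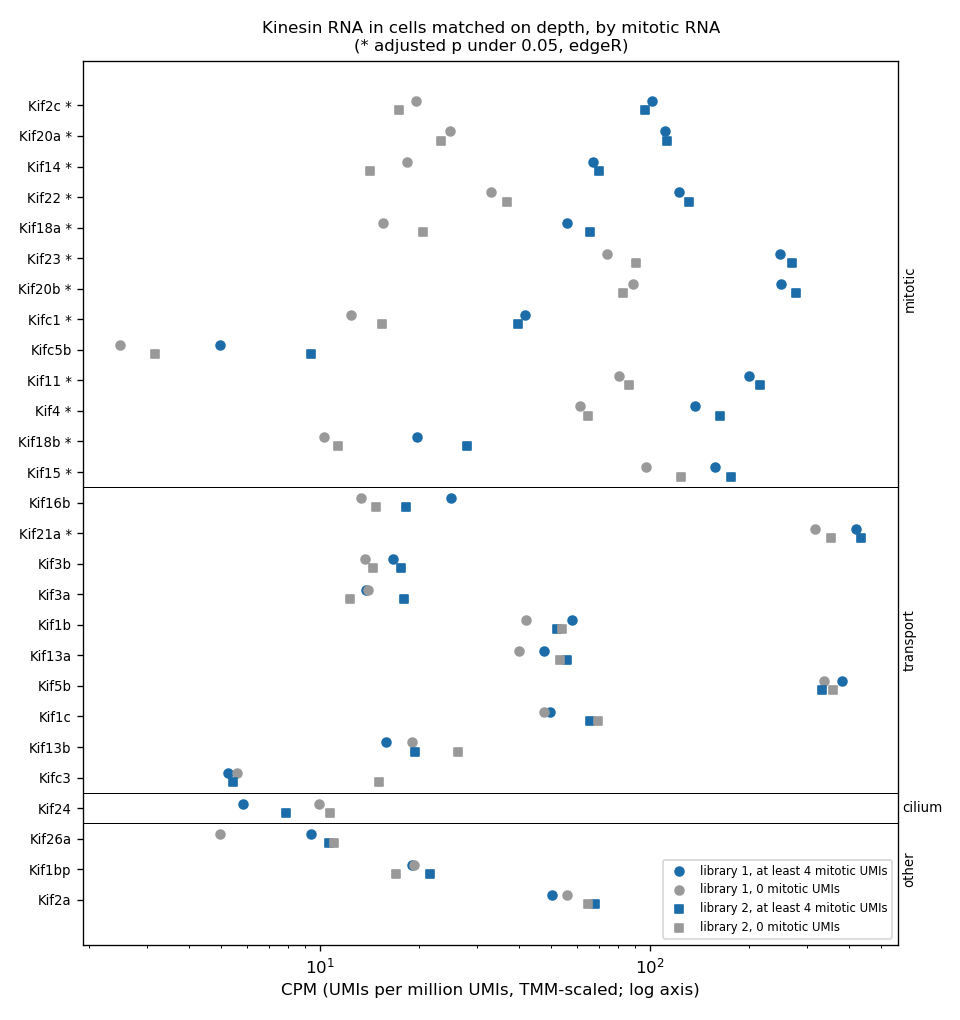
Level of each tested kinesin gene (CPM, TMM-scaled, log axis) in cells with at least 4 (blue) and with 0 (grey) mitotic UMIs, for library 1 (circles) and library 2 (squares), grouped by role; an asterisk marks an adjusted p under 0.05. Mitotic motors lie to the right in blue, from Kif2c at 101 and 96.6 CPM against 19.6 and 17.4 down to Kif15, while most transport motors overlap.

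The promoters of these genes were compared because the genes rose together. Windows from 250 bases before to 50 bases after a transcript start (RefSeq, GRCm38.p6) were found for 34 of the 44 genes, and 3 words were searched on both strands: CCAAT, the site of the NF-Y factor, TTTGAA, a common form of the cell cycle genes homology region, and TTTCCCGC, a common E2F site. Printed are the 6 genes with the largest rise and a window, and Kif2a, which did not pass. The sequences run 5' to 3' along the gene, and capitals mark a match to CCAAT or TTTGAA or to their reverse complements ATTGG and TTCAAA.
Kif22 (chr7:127042371-127042670, minus strand): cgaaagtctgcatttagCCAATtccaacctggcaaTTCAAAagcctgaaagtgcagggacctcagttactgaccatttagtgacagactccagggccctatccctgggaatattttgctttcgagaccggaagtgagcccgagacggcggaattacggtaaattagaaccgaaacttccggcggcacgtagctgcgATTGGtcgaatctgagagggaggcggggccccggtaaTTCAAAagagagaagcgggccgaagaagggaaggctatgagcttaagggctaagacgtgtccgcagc
Kif23 (chr9:61946750-61947049, minus strand): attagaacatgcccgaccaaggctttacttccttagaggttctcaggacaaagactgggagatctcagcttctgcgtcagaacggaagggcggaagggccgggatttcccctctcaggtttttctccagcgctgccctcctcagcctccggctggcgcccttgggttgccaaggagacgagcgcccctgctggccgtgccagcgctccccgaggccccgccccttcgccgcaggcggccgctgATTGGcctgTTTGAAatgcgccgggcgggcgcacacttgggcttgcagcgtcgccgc
Kif20b (chr19:34922108-34922407, plus strand): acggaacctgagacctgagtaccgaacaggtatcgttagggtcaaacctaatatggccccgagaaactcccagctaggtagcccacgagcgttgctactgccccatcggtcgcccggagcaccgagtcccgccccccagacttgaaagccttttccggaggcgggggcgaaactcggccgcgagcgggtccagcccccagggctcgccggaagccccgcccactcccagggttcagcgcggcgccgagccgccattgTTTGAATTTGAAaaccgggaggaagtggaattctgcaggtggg
Kif14 (chr1:136467598-136467897, plus strand): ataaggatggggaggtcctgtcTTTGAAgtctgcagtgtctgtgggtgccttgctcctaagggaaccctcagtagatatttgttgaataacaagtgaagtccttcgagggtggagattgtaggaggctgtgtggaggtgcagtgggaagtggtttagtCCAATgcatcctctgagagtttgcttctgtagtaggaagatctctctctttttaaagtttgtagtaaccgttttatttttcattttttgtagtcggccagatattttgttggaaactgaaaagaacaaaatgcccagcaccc
Kif2c (chr4:117178723-117179022, minus strand): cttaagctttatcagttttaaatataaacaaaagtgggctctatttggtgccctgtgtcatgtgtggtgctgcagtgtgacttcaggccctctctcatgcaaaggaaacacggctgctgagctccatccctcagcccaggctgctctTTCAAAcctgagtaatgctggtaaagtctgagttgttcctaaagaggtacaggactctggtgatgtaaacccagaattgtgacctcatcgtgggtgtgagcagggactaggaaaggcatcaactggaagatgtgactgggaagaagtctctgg
Kif18a (chr2:109280488-109280787, plus strand): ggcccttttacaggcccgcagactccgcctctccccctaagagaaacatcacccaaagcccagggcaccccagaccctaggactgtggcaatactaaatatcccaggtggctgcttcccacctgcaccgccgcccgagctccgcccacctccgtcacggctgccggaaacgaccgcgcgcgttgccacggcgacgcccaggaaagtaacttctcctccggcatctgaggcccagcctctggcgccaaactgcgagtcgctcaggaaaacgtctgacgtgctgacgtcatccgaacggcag
Kif2a (chr13:107022065-107022364, minus strand): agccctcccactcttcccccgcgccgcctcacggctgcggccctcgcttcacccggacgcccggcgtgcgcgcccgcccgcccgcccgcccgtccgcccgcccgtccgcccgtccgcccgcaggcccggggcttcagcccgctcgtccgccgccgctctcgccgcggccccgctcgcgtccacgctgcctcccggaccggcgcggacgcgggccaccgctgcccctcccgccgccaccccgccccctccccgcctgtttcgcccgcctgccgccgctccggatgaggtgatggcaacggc
TTTGAA was in 10 of the 12 higher genes with a window, in 1 of the 10 tested genes that did not pass, and in 17.9% of 32851 windows of all genes. The 1 of 10 was the mitotic kinesin Kifc5b, and the 12 included the transport gene Kif21a, which lacked the word. Members with several windows were counted once, while the share over all genes counts each window. CCAAT was in 7 of 12 and 5 of 10, against 37.4% of all windows. Both words were in 7 of 12 and 1 of 10, against 6.95%. TTTCCCGC was in none of the 22, against 1.07%. In Kif23 a CCAAT match began at position -7 and a TTTGAA match at position 3, counted from the start, and in Kif22 matches began at positions -54 and -17. Kif18a and the Kif2a window held neither word. The Kif2c and Kif14 windows start at other transcripts than the gene start in GENCODE M21. A match is a description of letters and not a bound site, and the genes were chosen from this contrast, so no test is given.

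Across cells with more mitotic RNA, the mitotic kinesins did not rise at the same pace. Cells were grouped by 0, 1, 2 to 3, 4 to 7 and 8 or more mitotic UMIs, without matching, and median UMIs per cell rose from 4366 to 7159 in library 1 and from 4359 to 7149 in library 2. Kif2c rose at each step, from 21.3 to 41.4, 48.5, 80.7 and 105 CPM in library 1 and from 19.3 to 39.4, 50.9, 78.8 and 114 CPM in library 2. Kif20a ran from 23.9 to 111 CPM and from 25.3 to 133 CPM. In both genes the 95% Poisson intervals of the lowest and highest groups did not overlap. Kif15 (ENSMUSG00000036768, chr9:122951046-123018733, plus strand) took another course: it was at 97.9, 142, 157, 161 and 143 CPM in library 1 and at 122, 177, 191, 175 and 164 CPM in library 2. Its level in cells with 8 or more mitotic UMIs was close to that at 1 UMI. Kif11 reached 193 CPM at 4 to 7 UMIs in library 1 and 191 at 8 or more, and 191 and 220 CPM in library 2. Kif21a stayed between 308 and 329 CPM in the lower 3 groups of library 1 and reached 440 CPM in the highest. Kif5b went from 316 CPM in the lowest group to 439 in the highest in library 1, and from 362 to 391 in library 2. Among the mitotic kinesins with at least 100 UMIs, the folds from the lowest to the highest group ran from 1.46 and 1.35 for Kif15 to 4.91 and 5.92 for Kif2c. No test is given, since the groups share libraries and are a description of the class used above.

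**Figure D2:**
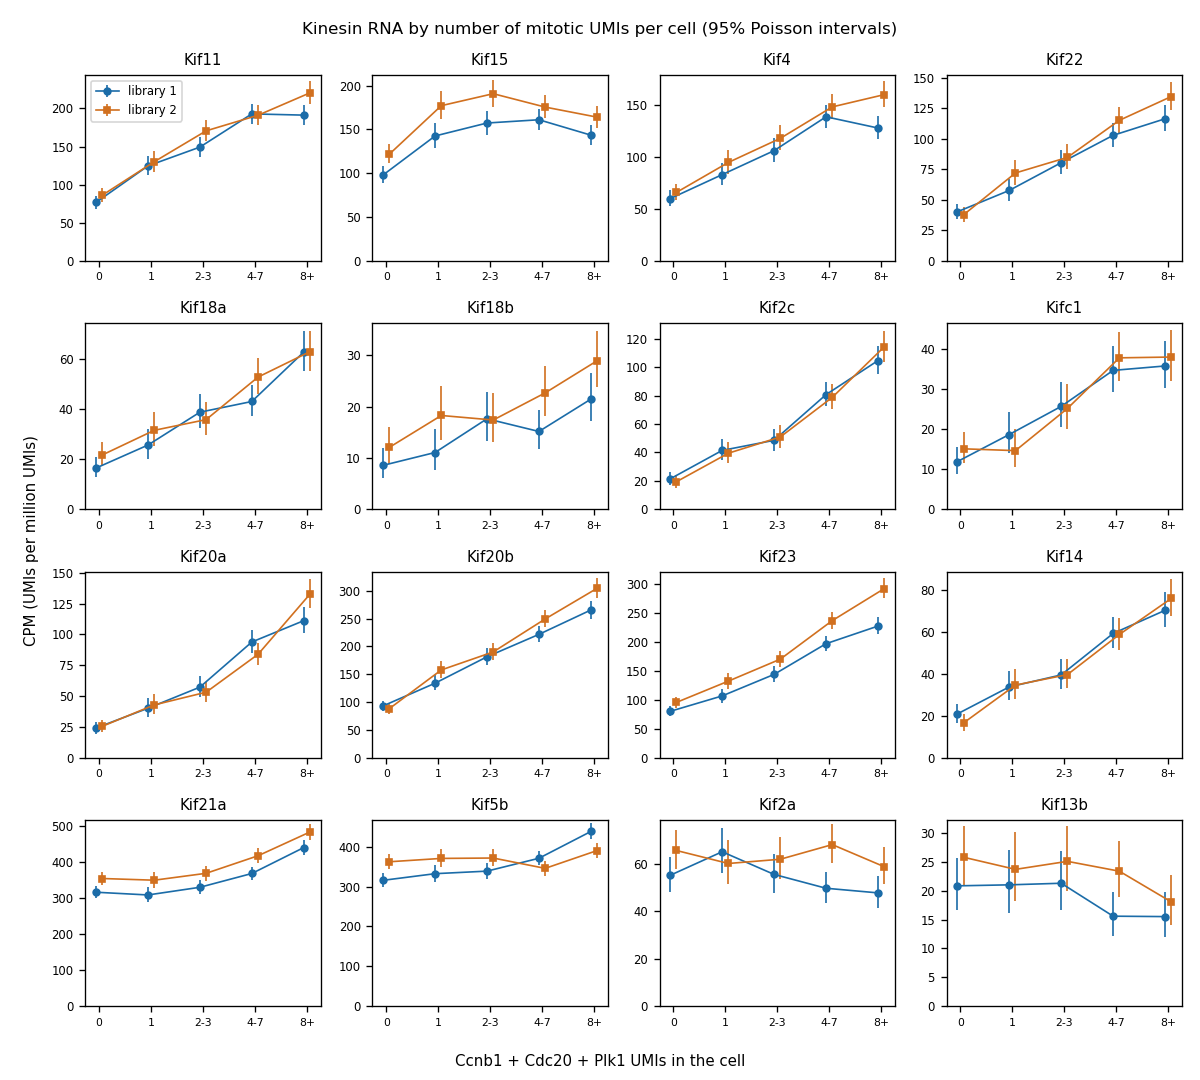
Level (CPM) of 12 mitotic and 4 other kinesin genes by the number of Ccnb1, Cdc20 and Plk1 UMIs per cell, in library 1 (blue) and library 2 (orange), with 95% Poisson intervals that cover counting error only. Kif2c and Kif20a climb through every group, Kif15 levels off after 1 UMI, and Kif2a and Kif13b show no rise.

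At equal depth, a larger share of cells with mitotic RNA held a UMI of Kif20a or Kif23, and the mean number of mitotic kinesins per cell was higher. Cells with at least 2000 UMIs were thinned to 2000, which left out 662 shallower cells, and classes were counted before thinning. Kif20a RNA was then found in 4.10% of cells with 0 mitotic UMIs, 9.67% with 1 to 3 and 19.7% with at least 4 in library 1, and in 5.14%, 8.91% and 20.7% in library 2. Kif23 RNA was found in 13.0%, 23.2% and 35.6%, and in 14.1%, 27.3% and 40.6%. Kif5b RNA was found in 44.6%, 44.8% and 49.9% of library 1, and in 49.2% to 51.0% over the same classes of library 2. The 13 mitotic kinesins that were detected gave a mean of 0.971 and 1.04 kinds per cell with 0 mitotic UMIs, 1.74 and 1.93 with 1 to 3, and 2.51 and 2.74 with at least 4. None was found in 41.6% and 43.5% of cells with 0 mitotic UMIs and in 6.06% and 6.57% of those with at least 4. Before thinning these means were 2.19 and 2.33, 3.88 and 4.36, and 6.08 and 6.41.

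The background was read in cells without any UMI of Mki67, Top2a, Ccna2, the 3 mitotic genes and 4 S phase genes. There were 65 such cells in library 1 and 100 in library 2, with medians of 3432 and 3918.5 UMIs before thinning. Kif20a was in 0 of 65 and 0 of 100 thinned cells, with upper exact binomial bounds of 5.52% and 3.62%. These bound the share of cells with a UMI at 2000 UMIs, not the share that express the gene, and the cells were chosen for lacking proliferation RNA. Kif23 was in 4.62% and 3.00% of them. Kif5b was in 44.6% and 55.0% and Kif21a in 46.2% and 51.0% of the same cells, and the mean number of mitotic kinesins was 0.123 and 0.0300.

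**Figure D3:**
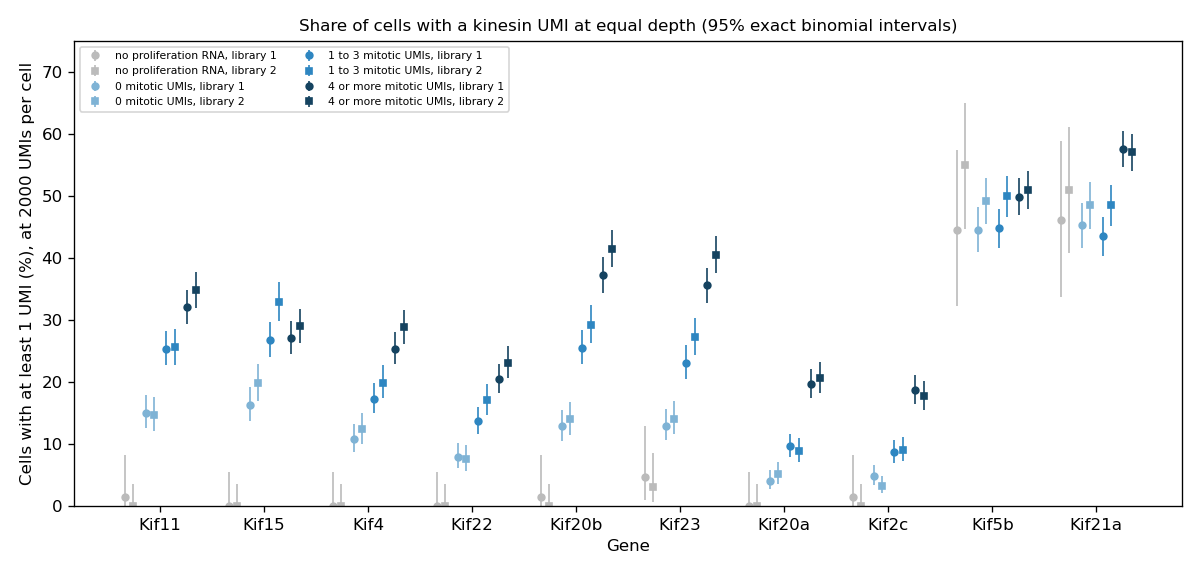
Share of cells with at least 1 UMI (percent) of 10 kinesin genes after thinning each cell to 2000 UMIs, for cells with no proliferation RNA (grey) and with 0, 1 to 3 and at least 4 mitotic UMIs (light to dark blue), by library (circles and squares), with 95% exact binomial intervals. The 8 mitotic genes lie near 0 in the grey class and higher in the blue classes, with Kif15 in library 2 highest at 1 to 3 mitotic UMIs, and Kif5b and Kif21a lie at 43% or above in each class.

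Cells with S phase RNA but no mitotic RNA were compared to see which kinesins are already higher at that stage. The classes held at least 4 or 0 UMIs of Mcm3, Mcm5, Mcm6 and Pcna, which serve DNA replication, among cells with 0 mitotic UMIs, matched on depth to 73 and 93 cells per class. Both keratins moved with this contrast. Krt15 was at 2210 and 2426 CPM with S phase RNA and at 3772 and 9491 CPM without (log2 fold change -1.38, SE 0.29), and Krt12 at 10313 and 11324 CPM against 20418 and 26321 (-1.10, SE 0.24), and their part in the results was not tested. Of 13 members tested, 3 were higher and 0 were lower, where over all 5377 genes 5.95% were higher and 8.41% lower (edgeR). The median log2 fold change was 0.18 over the 13 and -0.02 over all genes. Kif15 was at 81.6 and 143 CPM with S phase RNA and at 63.4 and 36.5 CPM without (log2 fold change 1.24, SE 0.37, adjusted p = 0.0460). In library 1 alone it was 0.41 and in library 2 alone 1.92. Kif4 was at 67.0 and 75.9 CPM against 38.0 and 25.1 (1.22, SE 0.37, adjusted p = 0.0474, edgeR), or 0.84 and 1.54 by library. Kif20b was at 102 and 99.1 CPM against 60.2 and 43.3 (0.98, SE 0.30, adjusted p = 0.0497, edgeR).

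None of these 3 calls held with DESeq2, without the library block or without depth matching. Without matching Kif20b was at -0.04, and Kif15 had adjusted p = 0.509 with DESeq2. The 10 that did not pass included Kif5b (-0.43), Kif21a (-0.36), Kif1b (-0.32), Kif1c (-0.67) and Kif2a (0.18) and ranged from -1.17 to 0.71. Kif2a was at 35.0 and 103 CPM with S phase RNA and at 79.2 and 50.1 CPM without, so the libraries differed in direction. Of 17 spindle and midzone partners tested, 5 were higher, with Ect2 (1.86), Incenp (1.32), Ckap2l (1.29) and Tpx2 (1.28) the largest. Ect2 passed the count filter through its level in cells with S phase RNA, at 46.6 and 33.7 CPM against 19.0 and 4.56 without. Of 17 dynein and dynactin genes, Dynll1 (-1.20) and Dync1i2 (-0.94) were lower. Of 10 tubulins, 3 were higher and 3 lower, with Tubb2a (-3.67), Tuba1a (-2.61), Tubb2b (-2.16) and Tubg1 (1.58) the largest. Tubb2a, Tuba1a and Tubb2b passed the count filter through their level in cells without S phase RNA. Tubb2a was at 2.91 and 4.22 CPM with S phase RNA and at 57.1 and 45.6 CPM without. Of the kinesins without a Kif symbol and adaptors, none of the 4 tested (Cenpe, Kifap3, Klc1 and Klc3) passed.

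Keratin makeup separated cells whose kinesins differed in few genes. Krt12 is the keratin of the differentiating corneal epithelium and Krt15 is found in basal and limbal cells, at the corneal edge where stem cells reside. A cell was Krt12-dominant where Krt12 made over 0.8 of its Krt12 and Krt15 UMIs and Krt15-dominant where it made under 0.4, with at least 5 UMIs of both together. There were 2304 and 1821 Krt12-dominant cells against 663 and 959 Krt15-dominant cells in libraries 1 and 2, with median UMIs of 5784.5 and 6375 against 5002 and 5096. The classes differed in much else. The 3 corneal markers summed to 22412 and 29981 CPM in Krt12-dominant and to 1765 and 1487 in Krt15-dominant cells, and the 5 limbal and conjunctival markers (Krt15, Krt19, Krt13, Krt4 and Gpha2) to 377 and 397 against 8436 and 12557. Krt13 and Krt4 of that list are keratins of the conjunctiva. Median mitochondrial shares were 2.49% and 3.15% against 3.47% and 4.41%. The part of these differences in the results was not tested. Of 29 members tested, 2 were higher and 3 were lower in Krt12-dominant cells. Over 11676 genes, 14.3% were higher and 15.3% lower (edgeR), so the 5 of 29 are no larger share than that of all genes. The median log2 fold change was -0.01 over the 29 and 0.01 over all genes.

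Kif26a (ENSMUSG00000021294, GRCm38 chr12:112146208-112181747, plus strand), a kinesin-like protein that lacks motor activity and binds microtubules, had the largest difference. It had 156 and 188 UMIs in Krt12-dominant cells and 2 and 6 UMIs in Krt15-dominant cells, at 11.8 and 16.4 CPM against 0.562 and 1.18 CPM (TMM-scaled). The log2 fold change was 3.95 (SE 0.37, adjusted p = 2.83e-07, edgeR), and unscaled CPM ratios were 20.5 (95% interval 5.57 to 171) and 13.8 (6.21 to 38.0). The intervals cover counting error only. Kif26a passed the count filter through its level in Krt12-dominant cells, and its p-value is to be read with that limit. Over 6 groups of rising Krt12 share, Kif26a was at 0.691 CPM under 0.2 and 11.7 CPM at 0.9 and above in library 1, and at 1.07 and 16.7 CPM in library 2. Kif13a, an endosomal transport motor, was at 44.4 and 64.4 CPM against 39.6 and 33.7 (0.57, SE 0.18, adjusted p = 0.0414, edgeR). Its difference was 0.19 in library 1 alone and 0.94 in library 2 alone.

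Among the lower genes, Kif21b (ENSMUSG00000041642, chr1:136131389-136177998, plus strand), a relative of Kif21a, had 7 and 6 UMIs in Krt12-dominant cells and 11 and 18 UMIs in the fewer Krt15-dominant cells. The log2 fold change was -2.62 (SE 0.54, adjusted p = 0.00127, edgeR). Kif21b passed the count filter through its level in Krt15-dominant cells, and it did not pass it, and so was not tested, when the classes were matched on total UMIs. In all cells of the classes its CPM was 5.99 times (95% interval 2.12 to 18.2) and 6.82 times (2.60 to 21.0) as high in Krt15-dominant cells. DESeq2 gave adjusted p = 0.0869 for Kif21b. The 10 cells with at least 10 immune marker UMIs held 0 of its 43 UMIs. The immune list stood at 0.361 and 1.82 CPM in Krt12-dominant and 1.94 and 38.3 CPM in Krt15-dominant cells, and its part in the result was not tested.

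Kif20a (67.6 and 61.0 CPM against 80.6 and 88.9) and Kif11 (145 and 154 CPM against 190 and 181) were lower by -0.40 (SE 0.11, adjusted p = 0.0115) and -0.31 (SE 0.09, adjusted p = 0.0181) in edgeR's test. The share of cells with at least 4 mitotic UMIs moved with this contrast, at 34.9% and 31.9% of Krt12-dominant cells and 41.0% and 45.0% of Krt15-dominant cells. With the classes matched on mitotic UMIs, Kif20a was at -0.24 (adjusted p = 0.1504) and Kif11 at -0.24 (adjusted p = 0.0692). The 5 most abundant genes that did not pass were Kif21a (0.01), Kif5b (0.08), Kif20b (0.01), Kif23 (-0.01) and Kif15 (0.25, adjusted p = 0.0579). The 24 that did not pass ranged from -0.42 to 0.42. Of the partners, 7 of 20 spindle and midzone genes were lower, with Ect2 (-0.68), Cep55 (-0.47), Spag5 (-0.43) and Ckap2 (-0.39) the largest. Kifap3 (0.51) and Klc1 (0.45), adaptors of kinesin-2 and kinesin-1, were higher among 11. Among 19 dynein and dynactin genes 2 were higher and 4 lower, with Dynll2 (0.73), Dynlt1f (0.63), Nde1 (-0.48) and Dynll1 (-0.37) the largest. Among 11 tubulins 2 were higher and 3 lower, with Tuba8 (-2.26), Tubb2b (-1.16), Tubb2a (-1.14) and Tubg1 (0.43) the largest. Tuba8 passed the count filter through its level in Krt15-dominant cells, and its call is to be read with that limit. It was at 0.979 and 1.75 CPM in Krt12-dominant cells and at 5.06 and 8.08 CPM in Krt15-dominant cells.

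**Figure D4:**
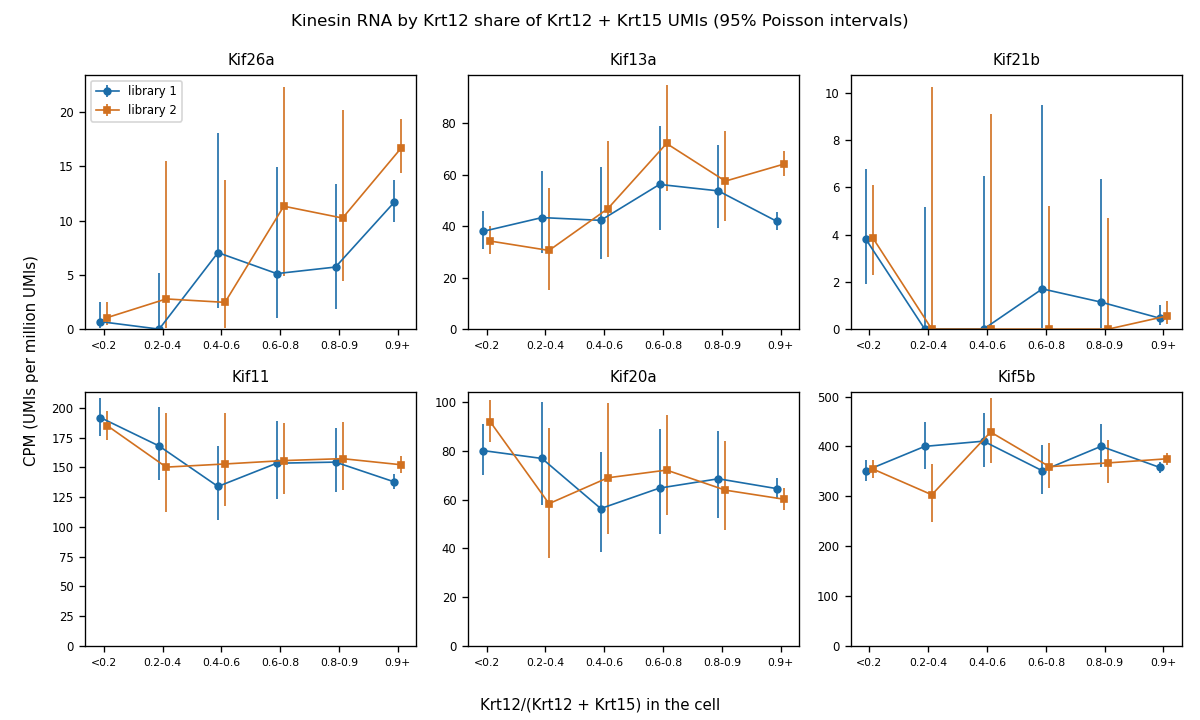
Level (CPM) of 6 kinesin genes by the Krt12 share of a cell's Krt12 and Krt15 UMIs, in library 1 (blue) and library 2 (orange), with 95% Poisson intervals that cover counting error only. Kif26a climbs to 11.7 and 16.7 CPM in the highest group, Kif21b lies mostly in the lowest, and Kif5b shows no trend.

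Whether the mitotic difference itself differed between Krt12-dominant and Krt15-dominant cells was tested with an interaction term over 8 sums and 9284 genes. Of 26 members tested, 0 were higher and 0 lower, as were 0.0% of all genes, and the lowest adjusted p over all genes was 0.624 (edgeR). Kif26a, 1 of the 26, was at 0.0 CPM in every Krt15-dominant sum, so its term could not be estimated (SE 4192.74). With it included, the median interaction term over the 26 members was -0.27, against -0.0025 over all genes. Among the 12 mitotic kinesins tested the median was -0.50. A negative value means a smaller mitotic difference in Krt12-dominant cells. At an unadjusted p under 0.05 there were 458 genes, among them 4 members: Kif11 (-0.68), Kif23 (-0.74), Kif2c (-1.04) and Kif22 (-0.61). Their lowest adjusted p was 0.808, and DESeq2 called 1 gene, which was no member. Each class held 123 to 387 cells per library.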

How the data were processed

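The authors deposited 1 matrix of raw UMI counts, not normalized, with 6752 barcodes. Per the submitters' processing notes, Cell Ranger 3.1.0 and Seurat 5.0.0 were used with GRCm38 (mm10), and no GFP feature was used here. Cells with at least 500 genes and under 20% mitochondrial UMIs were kept, which left out 475 and 311 barcodes (some for both reasons). No doublets were removed. 5 barcode sequences occurred in both libraries. UMIs were summed per library and class, and fitted with edgeR 4.0.16 in R 4.3.3 (TMM, filterByExpr, robust quasi-likelihood, library as a block, 1 residual degree of freedom for 4 sums), and the class genes were left out. The SE is the log2 fold change divided by the square root of F. Matching drew equal numbers of cells from bins of 0.05 in log10 UMIs with a fixed seed. DESeq2 1.42.0 was an alternative. Fits were also run on simulated counts with changes set only in genes of higher count, which does not cover members with few UMIs. Other values came from Python 3.11.15 and scipy 1.17.1. Positions came from GENCODE M21. The members, gene lists and tests were chosen with earlier results of these data known. Text names all members past the threshold, the 5 most abundant that are not, and 4 partners per list. Leaving out cells with immune marker UMIs was added after seeing the data. No source used here gives the counting settings.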

Additional observations from a re-analysis of the deposited data

How the results depend on the processing

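In the mitotic contrast the members called higher ranged from 10 to 15 over the alternatives, and 10 remained with DESeq2 and without the library block: Kif15, Kif18b and Kif21a were no longer past the threshold. Settings with more than 13 have no share of all genes beside them here, and that rise is not read as a result about kinesins. One member, Kifc3, was called lower (1 against 0) without the 3% of cells with most UMIs, with at least 2 mitotic UMIs, and without the cells with immune markers. The genes called were 1345, against 386 with DESeq2 and 356 without the block.

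In the S phase contrast 3 members were higher, against 0 with DESeq2, 0 without the replicate block, 0 without depth matching and 1 (Kif15) with at least 8 S phase UMIs. That last setting had 29 and 27 cells per class, under the minimum of 50 set for the main test. Lower members were 0, against 1 without the count filter, 3 without depth matching and 1 after thinning. Kif20b turned from 0.98 to -0.04404 without matching. The genes called were 772, against 161 with DESeq2 and 1248 without matching. Without TMM the median of all genes moved from -0.02 to 0.10.

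In the Krt12 contrast 2 members were higher, against 1 (Kif26a) with DESeq2 and without the block. Lower members were 3, against 0 with DESeq2, 1 without the block, 1 matched on mitotic UMIs and 5 with shares under 0.2 and above 0.9. The genes called were 3455, against 1438 with DESeq2 and 1526 without the block. Kif13a also missed the threshold without the 3% of cells with most UMIs (adjusted p = 0.0723). For the interaction 0 genes were called, against 1 with DESeq2 and 1 without matching. The summed level in library 2 was 2321 CPM, against 2345 without the 3% of cells with most UMIs.

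With 1 residual degree of freedom the size of p rests on the spread shared over genes and on which cells were drawn. Kif2c had adjusted p = 1.71e-06 and 2.63e-17 with and without the cells with immune markers, at log2 fold changes of 2.42 and 2.46. With 1 library left out no test could be had, and each called member kept its direction. The cause of each change was not tested. The pairing is that of classes within a library, and with 2 libraries depth limits low genes.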
